A study of Arabidopsis thaliana with 30 samples.

Results

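The transcriptional response to induction of AtNIGT1.2-VP in roots was measured in Arabidopsis thaliana seedlings supplied with nitrogen. It rests on 6 of the 30 arrays of the series, namely 3 root arrays of seedlings treated with estradiol and 3 root arrays of mock-treated seedlings of the same line, and it was taken across all 22746 probe sets of the array. The seedlings carried an estradiol-inducible AtNIGT1.2-VP construct, the VP of which is not spelled out in the labels. At 9 days they were transferred to 5 mM NH4NO3, either with b-estradiol (10 mM, the unit given by the labels) or without it (mock), and roots were taken after 24 h, at 10 days. A further 3 kinds of root array with 3 arrays each serve as points of comparison: wild-type Col-0 on 5 mM NH4NO3, wild-type Col-0 without a nitrogen source, and an AtNIGT1.2 overexpressor without a nitrogen source. These seedlings were moved at 7 days and kept for 3 days on their plates, so their age was the same as that of the VP line but the time since transfer was not. The shoots of the same treatments were hybridised to another 15 arrays. The promoter of the constructs and the number of independent transgenic lines are not given in the sources used here. No estradiol-treated seedlings without the fusion are among the samples, so an effect of estradiol itself and an effect of the fusion cannot be told apart.

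NIGT1 proteins, AtNIGT1.2 among them, are transcription factors of the GARP family that are induced by nitrate and known as repressors of genes for high-affinity nitrate uptake. The subfamily also takes part in the response to phosphate starvation. In roots, nitrate enters through NRT2 and NPF transporters, ammonium through AMT transporters and urea through DUR3, and the nitrogen is then built into glutamine and glutamate. The study asked which genes AtNIGT1 proteins act on.

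Levels are RMA log2 values, so a difference of 1 is a 2-fold difference in hybridisation signal, and values of different probe sets cannot be set against each other. Of 317 loci in the 22 gene lists, 297 had a probe set of their own, and counts are given over those that passed the filter on low levels. Array medians ran from 6.92 to 7.08 over the 15 root arrays. Replicate arrays were alike, with Pearson's r across probe sets from 0.996 to 0.999 over the root groups. Principal components 1 and 2 took up 54.8% and 25.5% of the variance, and the mock and estradiol arrays lay apart on component 2, at 19.4 to 21.6 against -38.4 to -32.0. The sample titles call the replicates biological, and the p-values rest on the spread among them. The number of arrays limits the precision. Root tissue markers averaged 8.34 to 8.36 per array with estradiol and 8.35 to 8.44 with mock over 14 measured markers, against 5.75 to 6.10 in the shoot arrays, which were normalised separately. Photosynthesis genes, used as markers of shoot tissue, averaged 7.46 to 7.58 with estradiol and 7.65 to 8.01 with mock over 14 measured genes, against 11.6 to 12.8 in the shoot arrays. No detection calls are in the files used, so absence of a transcript could not be called.

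The NIGT1.2 transcript itself rose with estradiol. Its levels were 9.23, 9.23 and 9.17 in the 3 mock arrays and 13.29, 13.38 and 13.32 in the 3 estradiol arrays. The groups did not overlap, and the change of 4.12 ± 0.06 (fit ± standard error, n = 3 arrays per group) had an adjusted p of 2.22e-22 in limma. The overexpressor reached 13.67 ± 0.08 (SD, n = 3) without nitrogen, and the highest value of any probe set on a root array was 13.62 to 13.85, so both lay near the top of the scale and the size of the change is not exact. Without estradiol the VP line stood 0.28 above wild type on 5 mM NH4NO3 (adjusted p = 0.0019). The probe set does not tell the construct from the endogenous gene.

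Beyond the induced gene, more genes fell than rose, but the increases reached further than the decreases. After a filter on low levels, 15922 probe sets were tested, of which 2484 (15.6%) were higher with estradiol and 4503 (28.3%) were lower at an adjusted p under 0.05 in limma (6987 or 43.9% in either direction). With a size rule of at least 1 on the log2 scale, 435 probe sets (2.73%) were higher and 250 (1.57%) lower. Counted by gene, with 1 probe set for each of 15086 genes, 2381 (15.8%) were higher and 4325 (28.7%) were lower. Of these, 418 rose by at least 1 (2.77%) and 239 fell by at least 1 (1.58%). Steep changes were mostly increases, since 116 genes rose by at least 2 and 9 fell by as much, whereas 53 rose by at least 3 and 0 fell by at least 3. The scale leaves less room for decreases. On the 6 arrays, medians were 6.98 to 7.07, lowest values 3.502 to 3.555 and highest values 13.67 to 13.77. How far this limit shaped the difference in reach was not tested. Small changes made up most of both groups: 54.7% of the increases and 73.9% of the decreases were under 0.5. The median change over the genes tested was -0.07, and the mock and estradiol values did not overlap for 59.9% of them (59.4% of probe sets). Centring each array on its median narrowed the excess of decreases, to 2935 probe sets higher and 3628 lower. Of the 418 genes that rose by at least 1, 55 had a mock mean below the filter of 5.33. For 45 of the 418 the mean over the other 12 root arrays lay below it, so these genes entered the test only through their level with estradiol, and they had to differ. Among the genes named here they include TPPC, AT2G04460, CXE17, DIR5, NRT2.5, IGMT2, MGD2, UMAMIT19 and PAP24, and the sizes of their changes are fitted values, not exact folds. A filter that left out the estradiol arrays gave 389 probe sets higher by at least 1 in place of 435.

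**Figure D1:**
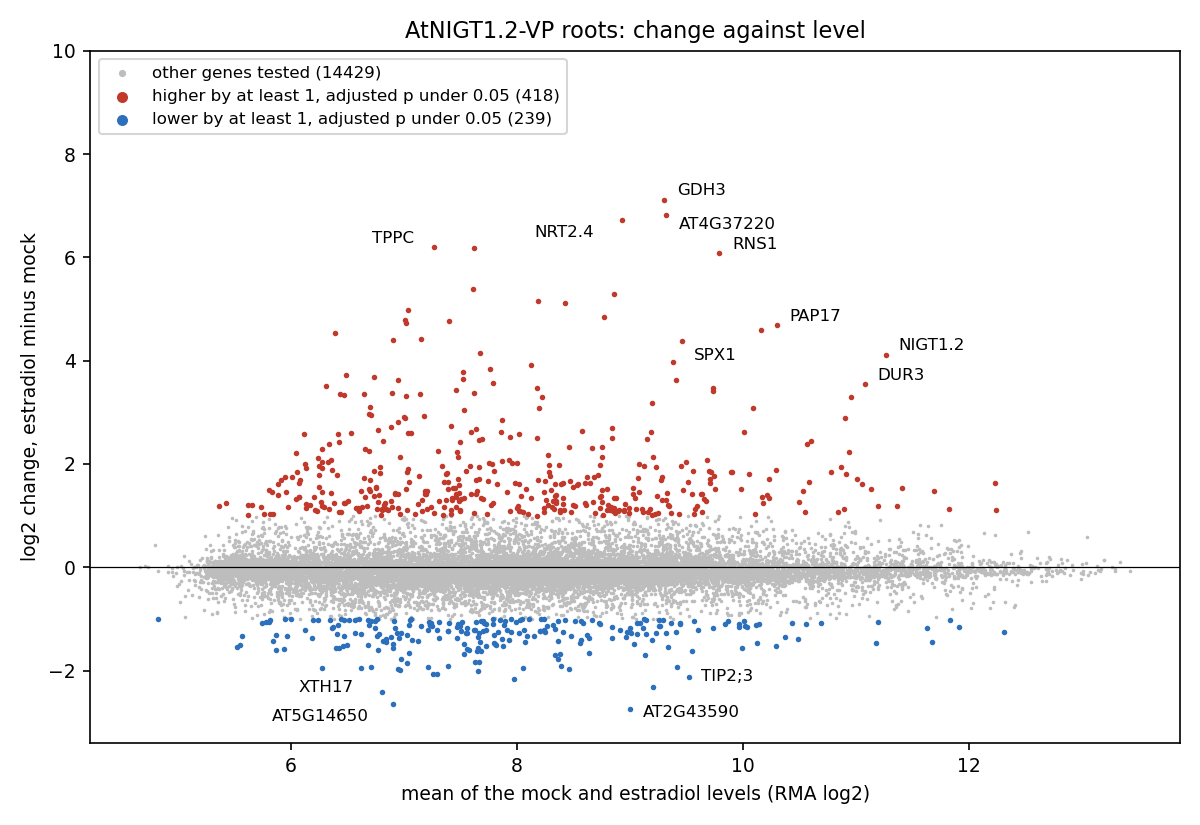
Change with estradiol (log2, estradiol minus mock, y axis) against the mean of the mock and estradiol levels (RMA log2, x axis) for the 15086 genes tested. The 418 genes that rose by at least 1 reach up to 7.12 (GDH3), whereas the 239 that fell by at least 1 end at -2.74 (AT2G43590).

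The 12 largest increases ran from 4.84 to 7.12 and took transcripts from mock means of 4.18 to 6.75 to estradiol means of 9.54 to 12.9. The largest was that of GDH3, which encodes a glutamate dehydrogenase, with levels of 5.66, 5.83 and 5.75 in the 3 mock arrays and 12.87, 12.83 and 12.89 in the 3 estradiol arrays. The change was 7.12 ± 0.11 (139-fold, adjusted p = 1.63e-21), and the lowest estradiol array lay far above the highest mock array. AT4G37220, described in the file as a cold acclimation protein homolog, followed with 6.04, 5.88 and 5.81 in the 3 mock arrays and 12.59, 12.85 and 12.77 in the 3 estradiol arrays and a change of 6.83 ± 0.12 (114-fold, adjusted p = 5.17e-21). NRT2.4, a high-affinity nitrate transporter that is known to be expressed in nitrogen-starved roots, came next, with 5.55, 5.41 and 5.75 in the 3 mock arrays and 12.21, 12.36 and 12.29 in the 3 estradiol arrays. Its change of 6.72 ± 0.12 was 105-fold (adjusted p = 6.24e-21).

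TPPC, encoding a trehalose-6-phosphate phosphatase, rose by 6.19 ± 0.10 from levels of 4.22, 4.25 and 4.06. Of the 6 trehalose-6-phosphate phosphatase genes tested, 2 rose (4 with no filter, 0 under the 50th percentile filter) and 2 fell (1 without estradiol replicate 2), with TPPH at 0.72 ± 0.10 and TPPI, which fell by 1.00 ± 0.11. Over all genes 15.8% rose and 28.7% fell. AT2G04460, described as a retroelement polyprotein, rose by 6.18 ± 0.08, and the other root groups held it at means of 4.50 to 4.63. RNS1, an extracellular ribonuclease induced by phosphate starvation, rose by 6.08 ± 0.09, from 6.97, 6.49 and 6.79 to 12.73, 12.96 and 12.81. The remaining genes of the 12 were the carboxylesterase gene CXE17 (5.39 ± 0.10), the ammonium transporter gene AMT1;4 (5.30 ± 0.11), the cation/proton antiporter gene CHX18 (5.15 ± 0.10), the cytosolic glutamine synthetase gene GLN1;4 (5.11 ± 0.10), the dirigent protein gene DIR5 (4.99 ± 0.16) and CEPD1 (4.84 ± 0.16). Replicates of DIR5 were the most spread among these, at 4.35, 4.23 and 5.06 with mock and 9.40, 9.29 and 9.91 with estradiol. Groups that do not overlap were a condition for choosing the 12.

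All 7 genes of the NIGT1 family that were on the array rose in the induced roots, against 15.8% of all genes. The 7 include NIGT1.2, the gene of the construct, whose rise cannot be counted as a response of the family. NIGT1.3 had the steepest change after NIGT1.2 itself, with levels of 8.09, 8.01 and 7.89 in the 3 mock arrays and 11.32, 11.54 and 11.56 in the 3 estradiol arrays and a change of 3.48 ± 0.08 (11.1-fold, adjusted p = 6.29e-19). NIGT1.1 rose by 1.84 ± 0.07, from 9.98, 9.83 and 9.77 to 11.65, 11.79 and 11.65. NIGT1.4 rose by 1.51 ± 0.10, from 10.52, 10.30 and 10.29 to 11.82, 11.92 and 11.92. The more distant members HHO5 (1.95 ± 0.07), HHO6 (1.47 ± 0.14) and HHO4 (1.00 ± 0.11) rose as well, HHO4 least. The family median, with NIGT1.2 included, was 1.84, against -0.07 over all genes tested. Hybridisation of the construct's transcript to the probe sets of the other family members was not tested.

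**Figure D2:**
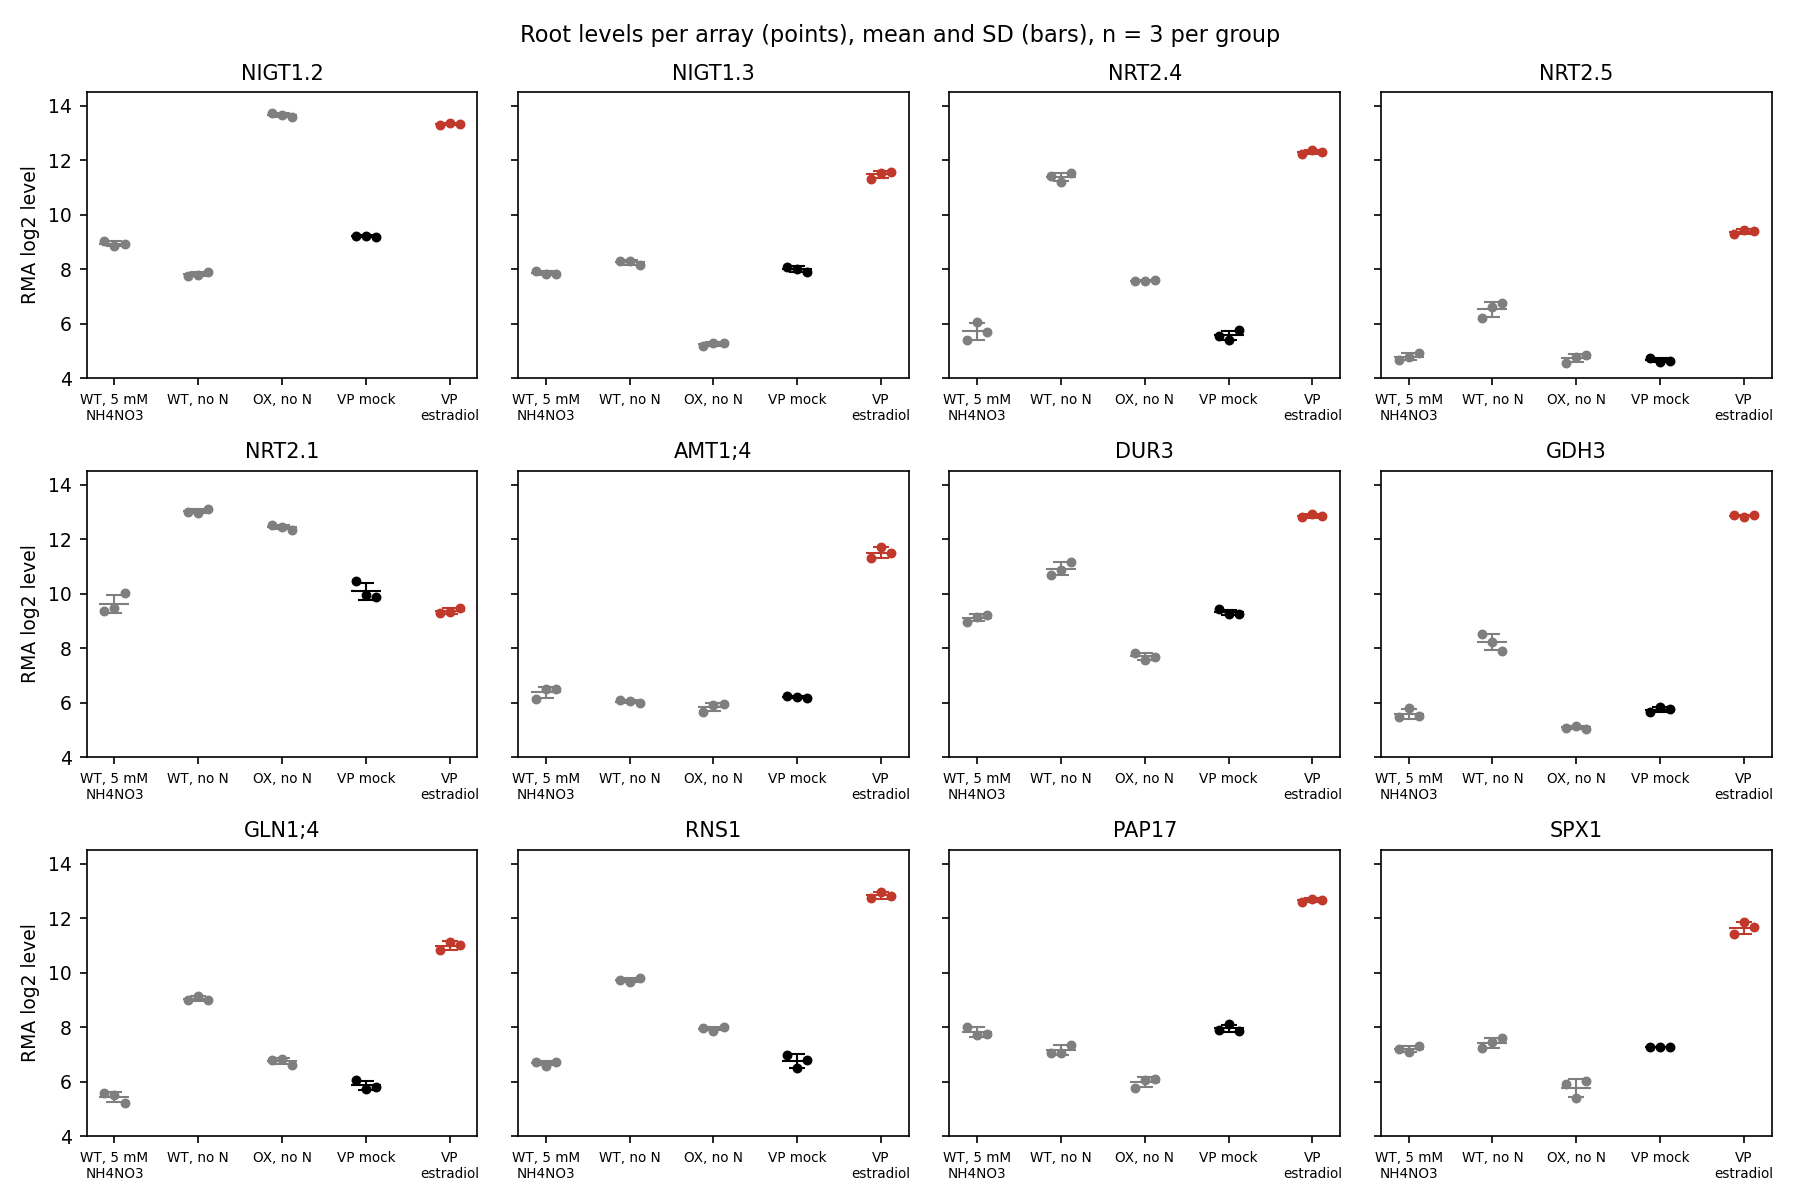
Root levels (RMA log2, y axis) of 12 genes in 5 groups (x axis: wild type on 5 mM NH4NO3, wild type without nitrogen, overexpressor without nitrogen, VP line with mock, VP line with estradiol). Points are arrays, and bars are the mean and SD of 3 arrays. For 11 of the 12 genes the 3 estradiol arrays lie above the mock arrays, by 7.12 for GDH3, whereas NRT2.1 is lower with estradiol, at 9.30 to 9.48 against 9.86 to 10.45.

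Among nitrate transporters, a few genes rose steeply, while others fell by less than 1 or did not pass. Of 24 genes tested in this list, 6 were higher and 8 lower, against 15.8% and 28.7% over all genes, with a median of 0.04. Under the 50th percentile filter 5 were lower. NRT2.5, a high-affinity transporter of nitrogen-starved plants, rose from 4.75, 4.61 and 4.62 to 9.30, 9.45 and 9.38, a fitted change of 4.72 ± 0.12 from mock levels below the filter. NRT3.1, the partner protein that NRT2 transporters need at the membrane, rose by 1.11 ± 0.07 (11.87, 11.61 and 11.57 to 12.76, 12.87 and 12.75). NPF7.2, which retrieves nitrate from the xylem, rose by 1.94 ± 0.14, and the dual-affinity transporter and nitrate sensor NPF6.3 by 0.22 ± 0.06 (adjusted p = 0.00249). NRT2.1, the main high-affinity nitrate uptake gene of roots, changed the other way: its levels were 10.45, 9.96 and 9.86 in the 3 mock arrays and 9.30, 9.32 and 9.48 in the 3 estradiol arrays. It fell by 0.72 ± 0.13 (adjusted p = 0.000101), without overlap but with more spread among the mock arrays. Its neighbour NRT2.2 stood at 4.92, 5.15 and 4.91 with mock and 4.77, 5.08 and 4.88 with estradiol and did not pass (adjusted p = 0.542). The root anion channel genes SLAH3 (fell by 0.88 ± 0.10) and SLAH1 (fell by 0.65 ± 0.13), the vacuolar nitrate exchanger CLCA (fell by 0.54 ± 0.08) and NPF7.3, which loads nitrate into the xylem (fell by 0.26 ± 0.05), were lower.

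Nitrate assimilation changed little. Of 10 genes tested, 3 rose and 3 fell, and 0 by as much as 1, against 15.8% higher and 28.7% lower over all genes. The nitrate reductase genes NIA1 (0.60 ± 0.11) and NIA2 (0.53 ± 0.05) rose, and the nitrite reductase gene NIR1 fell by 0.33 ± 0.06 (adjusted p = 8.52e-05). The other increase in this list was that of SIR (0.55 ± 0.05), a sulfite reductase gene of sulfate assimilation and not of nitrate assimilation. The mock level of NIA1 in the VP line already stood 1.86 above wild type on 5 mM NH4NO3 (adjusted p = 2.54e-10). Downstream of assimilation, 8 of 14 genes of glutamine and glutamate metabolism rose and 1 fell (2 without mock replicate 3), with a median of 0.40. GLN1;4 had levels of 6.05, 5.74 and 5.82 in the 3 mock arrays and 10.81, 11.12 and 11.03 in the 3 estradiol arrays, 34.6-fold apart (adjusted p = 1.1e-19). The other cytosolic glutamine synthetase genes moved far less: GLN1;1 rose by 0.69 ± 0.04, GLN1;3 by 0.28 ± 0.06, and GLN1;2 fell by 0.15 ± 0.04. Among glutamate dehydrogenases, GDH2 rose by 0.38 ± 0.05 beside the 7.12 ± 0.11 of GDH3, and GDH1 did not pass at 0.04 ± 0.06 (adjusted p = 0.64). The glutamine amidotransferase gene GAT1_2.1 rose by 2.62 ± 0.13, from 7.56, 7.79 and 8.27 to 10.40, 10.58 and 10.51, and the asparagine synthetase gene ASN3 by 1.32 ± 0.08. The mock level of GAT1_2.1 was -1.71 relative to wild type on 5 mM NH4NO3 (adjusted p = 1.33e-08).

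Transporters of reduced nitrogen rose for the most part, with 9 of 13 genes higher and 2 lower (1 without estradiol replicate 2 or mock replicate 2) and a median of 0.70. DUR3, the high-affinity urea transporter, had levels of 9.43, 9.26 and 9.24 in the 3 mock arrays and 12.80, 12.92 and 12.84 in the 3 estradiol arrays and rose by 3.54 ± 0.09 (11.6-fold, adjusted p = 8.49e-18). The ammonium transporters did not move together. AMT1;4, better known from pollen, went from 6.25, 6.21 and 6.17 with mock to 11.32, 11.70 and 11.50 with estradiol, 39.3-fold higher (adjusted p = 8.29e-20). The main root transporter gene AMT1;1 rose by 1.48 ± 0.05 (2.79-fold, adjusted p = 1.89e-15), and AMT2 rose by 0.67 ± 0.06. AMT1;2, which acts in the root endodermis and cortex, fell by 1.07 ± 0.07, from 11.03, 10.97 and 10.91 to 10.05, 9.79 and 9.86 (adjusted p = 7.62e-11). The amino acid importers LHT1 (1.71 ± 0.07), PROT2 (1.39 ± 0.09) and AAP1 (1.12 ± 0.09) rose by more than 1. In the UMAMIT family of amino acid exporters, which was examined after the values were seen, 4 of 27 genes tested rose and 8 fell, near the 15.8% and 28.7% over all genes, and UMAMIT19 alone rose by more than 1, at 4.78 ± 0.13 from 4.64, 4.51 and 4.71 to 9.26, 9.51 and 9.45.

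Of 17 nitrogen response regulators tested, 6 rose and 3 fell, against 15.8% higher and 28.7% lower over all genes. NLP8, a nitrate-responsive transcription factor known from seed germination, rose by 2.46 ± 0.10, from 6.66, 6.38 and 6.27 to 8.89, 9.05 and 8.75, and its relative NLP6 by 0.95 ± 0.09. CBL1 (0.90 ± 0.09), a calcium sensor of nitrate signalling, and TCP20 (0.87 ± 0.08) rose. NLP7, the main transcription factor of the primary nitrate response, did not pass at -0.12 ± 0.06 (adjusted p = 0.142). The LBD37 (0.13 ± 0.07) and LBD38 (-0.08 ± 0.07) repressors of nitrogen-responsive genes did not pass either, whereas LBD39 fell by 0.28 ± 0.08. In the long-distance signalling of nitrogen demand, CEP peptides made in starved roots bind CEPR receptors in the shoot, and CEPD proteins return to the root, where the phosphatase CEPH activates NRT2.1. CEPD1 had levels of 6.27, 6.23 and 6.55 in the 3 mock arrays and 11.10, 11.33 and 11.14 in the 3 estradiol arrays and rose 28.7-fold (adjusted p = 2.95e-16). CEPH rose by 1.68 ± 0.14, from 6.02, 5.87 and 5.71 to 7.53, 7.57 and 7.54, CEPR1 by 0.75 ± 0.06 and CEP5 by 0.43 ± 0.12, while CEPR2 fell by 0.37 ± 0.08.

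Phosphate starvation, the longest of the lists, held the most increases by count, though not by share. Of 25 genes tested 17 rose, 11 of them by at least 1, and 1 fell, with a median of 0.69. This compares with 15.8% higher and 28.7% lower over all genes. PAP17, an acid phosphatase, had levels of 7.91, 8.10 and 7.85 in the 3 mock arrays and 12.57, 12.72 and 12.66 in the 3 estradiol arrays and rose 25.9-fold (adjusted p = 3.72e-19). SPX1, an inhibitor of the phosphate regulator PHR1 that is itself induced by phosphate starvation, had levels of 7.28, 7.25 and 7.27 in the 3 mock arrays and 11.42, 11.85 and 11.68 in the 3 estradiol arrays and rose 20.9-fold (adjusted p = 6.7e-17). The related SPX2 rose by 1.15 ± 0.08, and SPX4 rose from a mean of 6.51 ± 0.13 to 7.81 ± 0.10 (SD, n = 3). SPX3 lay below the filter and was not tested, with 4.79, 4.72 and 4.59 in mock and 7.66, 7.81 and 7.77 in estradiol roots. Enzymes that replace phospholipids by other membrane lipids were raised, with the galactolipid synthase MGD2 at 3.35 ± 0.10, the sulfolipid synthases SQD2 at 2.63 ± 0.10 and SQD1 at 1.74 ± 0.07, and the phosphodiesterase GDPD1 at 2.48 ± 0.10. The glycerol-3-phosphate permease gene G3PP1 rose by 3.09 ± 0.10, from 8.65, 8.53 and 8.45 to 11.54, 11.72 and 11.64. Among phosphate uptake genes the increases stayed under 1, with PHT1;9 at 0.73 ± 0.08, PHT1;8 at 0.64 ± 0.11 and PHT1;4 at 0.48 ± 0.11. The regulators PHR1 (-0.04 ± 0.08, adjusted p = 0.751) and PHL1 (-0.22 ± 0.13, adjusted p = 0.184) did not pass. Among 11 purple acid phosphatase genes tested, a family examined after the values were seen, 4 rose and 3 fell, and PAP24 (4.42 ± 0.10) rose almost as far as PAP17.

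Sulfur and iron nutrition genes were mixed, beside 15.8% higher and 28.7% lower over all genes. Of 12 sulfur starvation genes tested 3 rose and 1 fell: the sulfate-reducing enzymes APR1 (1.23 ± 0.08), APR3 (0.74 ± 0.06) and APR2 (0.26 ± 0.06) were higher, and the sulfate transporter SULTR1;2 fell by 0.56 ± 0.07. The sulfur deficiency markers SDI1 (0.05 ± 0.12, adjusted p = 0.794) and LSU1 (-0.06 ± 0.14, adjusted p = 0.774) did not pass. Of 10 iron genes tested 4 rose and 3 fell. The transcription factor BHLH39 rose by 2.07 ± 0.11, from 6.64, 6.97 and 7.08 to 8.74, 9.15 and 9.01, whereas its partner FIT fell by 0.82 ± 0.09 and IRT1, the iron transporter, fell by 0.85 ± 0.15.

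**Figure D3:**
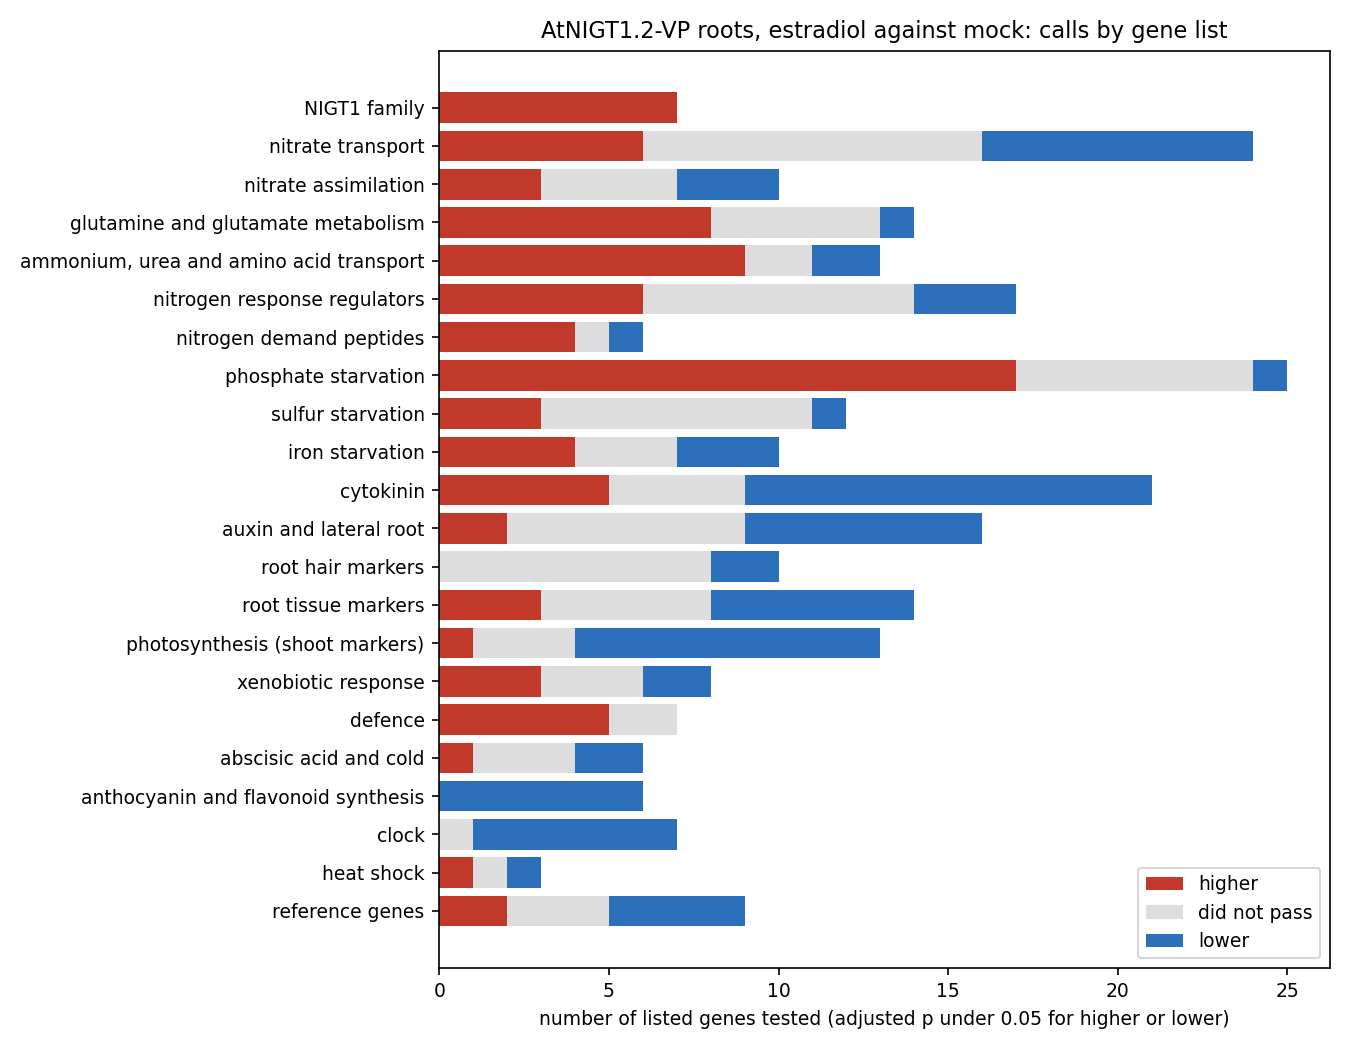
Number of genes tested in each of 22 gene lists (x axis) that were higher (red), did not pass (grey) or were lower (blue) with estradiol. The NIGT1 family (7 of 7, with the induced NIGT1.2 among them) and phosphate starvation (17 of 25) are mostly higher. Anthocyanin and flavonoid synthesis (6 of 6) and the clock (6 of 7) are mostly lower. Over all genes tested, 15.8% were higher and 28.7% lower.

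Genes of cytokinin, the hormone that relays nitrate status to the shoot, were mixed. Of 21 tested, 5 rose and 12 fell, with a median of -0.31, against 15.8% higher and 28.7% lower over all genes. The activating enzymes LOG1 (2.63 ± 0.12, from 6.65, 6.41 and 6.58 to 8.98, 9.36 and 9.18) and LOG7 (2.39 ± 0.07, from 9.44, 9.39 and 9.29 to 11.65, 11.88 and 11.74) led the increases. The type-A response regulators ARR4, ARR5, ARR6, ARR7, ARR8 and ARR9, which are cytokinin-induced, fell (ARR7 at -0.83 ± 0.09 and ARR6 at -0.78 ± 0.07), and ARR3 rose by 0.33 ± 0.09. CKX4, a cytokinin oxidase, fell by 1.91 ± 0.09 from 8.22, 8.45 and 8.36 to 6.63, 6.24 and 6.43, and the synthesis gene IPT3 fell by 0.31 ± 0.12. Of 16 auxin and lateral root genes tested 2 rose and 7 fell. TAR2, an auxin synthesis gene of nitrogen-limited roots, rose by 1.42 ± 0.09 and PIN2, a root auxin carrier, by 0.90 ± 0.06, whereas IAA14 fell by 0.65 ± 0.09 and LAX3 fell by 0.35 ± 0.05.

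The 12 deepest decreases ran from -2.74 to -1.96 and started from mock means of 7.93 to 10.6. The deepest was that of AT2G43590, described as an endochitinase, with levels of 10.39, 10.44 and 10.29 in the 3 mock arrays and 7.77, 7.34 and 7.79 in the 3 estradiol arrays. It fell by 2.74 ± 0.10 (6.68-fold, adjusted p = 3.14e-15). AT5G14650, described as polygalacturonase-like, fell by 2.65 ± 0.14, from 8.33, 8.25 and 8.12 to 5.72, 5.73 and 5.29. XTH17, a xyloglucan-modifying enzyme of the cell wall, fell by 2.41 ± 0.11, from 7.86, 8.10 and 8.10 to 5.60, 5.62 and 5.59. AZI1, a lipid transfer protein gene of systemic immunity, fell by 2.32 ± 0.13, the expansin gene EXPA17 fell by 2.17 ± 0.11, and TIP2;3, a vacuolar aquaporin that conducts ammonia, went from 10.54, 10.67 and 10.55 to 8.66, 8.21 and 8.50 (-2.13 ± 0.12). The rest were the receptor-like kinase genes AT1G51860 (fell by 2.06 ± 0.10) and AT5G59680 (fell by 2.00 ± 0.12), the peroxidase gene AT2G39040 (fell by 1.98 ± 0.12), the fatty alcohol-forming reductase CER4 (fell by 1.96 ± 0.13) and 2 genes of no stated function, AT1G19900 and AT5G57785.

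In wall-modifying families, examined after the values were seen, decreases outnumbered increases. Of 22 XTH genes tested 15 fell and 2 rose, with a median of -0.36; XTH18 fell by 1.77 ± 0.10 and XTH7 fell by 1.09 ± 0.10, and XTH24 rose by 0.72 ± 0.13. Of 19 expansin genes 12 fell and 0 rose, with a median of -0.31, among them EXPA6 (fell by 1.01 ± 0.08) and EXPA15 (fell by 0.91 ± 0.08). Of 52 genes described as peroxidases 26 fell and 14 rose. The share of all genes that fell was 28.7%, and 15.8% rose. Among root tissue markers 6 of 14 fell and 3 rose. The Casparian strip proteins CASP1 (fell by 0.70 ± 0.05) and CASP2 (fell by 0.69 ± 0.07) were lower, whereas the suberin synthesis genes GPAT5 (0.64 ± 0.10) and CYP86A1 (0.60 ± 0.08) and the phloem sucrose transporter SUC2 (1.38 ± 0.08) were higher. Of 10 root hair genes, COBL9 (fell by 0.30 ± 0.08) and GL2 (fell by 0.44 ± 0.09) were lower and 8 did not pass. In whole roots, fewer cells of a type and less RNA per cell cannot be told apart.

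Of 13 listed flavonoid genes 11 had a probe set, and the 6 that passed the filter on low levels fell, with a median of -1.03. They were CHS (fell by 0.66 ± 0.06), TT5 (fell by 1.05 ± 0.10), F3H (fell by 1.03 ± 0.09) and FLS1 (fell by 1.03 ± 0.10), which encode successive enzymes of flavonol synthesis, and the transcription factors MYB12 (fell by 1.06 ± 0.12) and MYBL2 (fell by 0.76 ± 0.14). FLS1 went from 9.85, 9.70 and 9.77 with mock to 8.87, 8.70 and 8.68 with estradiol. Of 7 clock genes tested 6 fell, most of all GI, a regulator of the evening phase, from 9.56, 9.54 and 9.33 to 7.79, 7.95 and 7.68 (fell by 1.67 ± 0.07), and PRR5 (fell by 1.00 ± 0.09). Of 13 photosynthesis genes 9 fell, among them CHLH (fell by 1.24 ± 0.11) and LHCB3 (fell by 0.90 ± 0.07), and 1 rose. That gene was PSAD2, a photosystem I subunit, which rose from 6.36, 6.48 and 6.48 to 9.19, 9.50 and 9.20 (2.86 ± 0.11) while PSAF of the same photosystem fell by 0.77 ± 0.07. Over all genes tested 28.7% fell and 15.8% rose. The part of shoot tissue in the decreases of photosynthesis genes was not tested.

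Of 7 defence genes tested 5 rose and 0 fell, with a median of 1.38, and under the 50th percentile filter 3 rose. Over all genes tested 15.8% were higher and 28.7% lower, the shares to set beside this list and those that follow. MYB51, a regulator of indole glucosinolates, rose by 2.25 ± 0.14, the camalexin synthesis gene CYP71B15 by 1.98 ± 0.12, WRKY53 by 1.55 ± 0.11 and WRKY33 by 1.38 ± 0.10. Another 9 listed genes, including PR1, PR2 and PDF1.2A, lay below the filter and were not tested. In the WRKY family as a whole, examined after the values were seen, 17 of 43 genes tested rose and 16 fell; WRKY46 rose most, by 2.95 ± 0.12, from 5.20, 5.29 and 5.22 to 7.79, 8.47 and 8.31, and WRKY26 changed most in the other direction (fell by 1.34 ± 0.11). Of 6 abscisic acid and cold genes ABI2 rose by 1.17 ± 0.11, and RD29A (fell by 1.44 ± 0.15) and COR47 (fell by 1.18 ± 0.05) were lower. Xenobiotic response genes, listed because estradiol was applied to the plants, gave 3 of 8 higher and 2 lower (4 without mock replicate 3), with 0 changes of at least 1: CYP81D8 (0.65 ± 0.11), UGT74E2 (0.55 ± 0.08) and GSTU24 (0.22 ± 0.06) rose, and CYP81D11 (fell by 0.62 ± 0.08) and GSTU8 (fell by 0.48 ± 0.05) were lower. Of 3 heat shock genes HSP101 rose by 0.67 ± 0.12 and HSP70 fell by 0.28 ± 0.08. Of 9 reference genes used for normalisation elsewhere 2 rose and 4 fell, with changes from -0.31 (ACT8) to 0.18 (UBQ10). The 2 increases became 0 without estradiol replicate 2 and 1 without any other replicate of the VP line.

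To see which of these genes answered in the opposite way to AtNIGT1.2 itself, the changes were set beside those of the overexpressor against wild type, both without nitrogen. The comparisons share no array, but they differ in nitrogen supply, time since transfer and line. With overexpression 3254 genes were higher (21.6%) and 2528 lower (16.8%). Of the 2381 genes that rose with AtNIGT1.2-VP, 774 fell in the overexpressor, which is 32.5% of the first list and 30.6% of the second, and 357 rose. Of the 4325 that fell with AtNIGT1.2-VP, 1203 rose in the overexpressor (27.8% and 37.0% of the lists) and 814 fell. Among the 418 genes that rose by at least 1 with AtNIGT1.2-VP, 220 (52.6%) fell in the overexpressor and 45 rose. Among the 239 that fell by at least 1, 86 (36.0%) rose in the overexpressor and 83 (34.7%) fell, so neither direction prevailed. Across all genes tested the changes correlated weakly, with Pearson's r of -0.17 and Spearman's rho of -0.11 over 15086 genes, which are not independent of each other. The changes differed between the comparisons for 7457 probe sets (46.8%) and 7134 genes (47.3%) by a contrast of contrasts in limma.

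With a size rule of 1 on both sides, 67 genes rose with AtNIGT1.2-VP and fell in the overexpressor. Fewer genes rose by at least 1 in the overexpressor (62) than fell (325), so the counts by direction need these totals beside them. Over all genes tested, 2.77% rose by at least 1 with AtNIGT1.2-VP. Among the 325 the share was 20.6%, which is the 67 genes. The 12 with the largest smaller change included genes of nitrogen uptake and metabolism (NRT2.4, DUR3, GDH3, GLN1;4), of the phosphate list (G3PP1, SQD2) and of the NIGT1 family (NIGT1.3, NIGT1.1). For NRT2.4, starved wild-type roots stood at 11.43, 11.21 and 11.51 and starved overexpressor roots at 7.58, 7.56 and 7.60, a change of -3.80 (adjusted p = 4.41e-16). GDH3 was at 8.50, 8.21 and 7.91 in starved wild type and 5.08, 5.15 and 5.03 in the overexpressor (-3.12), and DUR3 at 10.68, 10.88 and 11.16 and 7.81, 7.58 and 7.69 (-3.22). All 3 genes were lower in the overexpressor without nitrogen and higher with estradiol in the VP line on nitrogen. NIGT1.3 fell by 3.00 in the overexpressor and NIGT1.1 fell by 1.93. The others of the 12 were IGMT2, an indole glucosinolate methyltransferase gene (4.53 ± 0.15 with AtNIGT1.2-VP, -2.81 with overexpression), the cytokinin-activating LOG7 (2.39 ± 0.07, -2.05), the carrier gene APC2 (1.98 ± 0.09, fell by 2.00) and AT2G17710 of unknown function (2.23 ± 0.07, -2.38). The difference between the comparisons passed in limma for each of the 12, but they were picked for opposite calls, so this adds no support. Of the 17 phosphate starvation genes that rose, 12 fell in the overexpressor, against 32.5% of all genes that rose with AtNIGT1.2-VP.

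Of the 12 largest increases 6 fell in the overexpressor, near the share of 52.6% among all genes that rose by at least 1 with AtNIGT1.2-VP. TPPC, AT2G04460, CXE17 and DIR5 lay below the filter of 5.33 in every root group but the estradiol one, at means of 4.38, 4.50, 4.93 and 4.12 in starved wild type, so a fall with overexpression could not be measured for them. AMT1;4 stood at 6.04 ± 0.06 in starved wild type and at 5.83 ± 0.16 in the overexpressor and did not pass (-0.21, adjusted p = 0.137). CEPD1 stood at 8.74 ± 0.31 in starved wild type and at 8.71 ± 0.27 in the overexpressor and did not pass either (-0.04, adjusted p = 0.883). Of the 62 genes that rose by at least 1 in the overexpressor, 7 (11.3%) rose by at least 1 with AtNIGT1.2-VP. For these 7, values are given here for AtNIGT1.2-VP and then for overexpression. Besides NIGT1.2 these were the calmodulin-like gene TCH3, AT5G39670 (3.32 and 1.68), AT1G72900, the glutathione transferase gene GSTU12 (2.38 and 1.29), FMO1, a monooxygenase of systemic immunity (1.74 and 2.54), and the invertase gene cwINV6 (1.53 and 1.01).

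In the other direction, 8 genes fell by at least 1 with AtNIGT1.2-VP and rose by at least 1 in the overexpressor. Of the 62 genes that rose by at least 1 in the overexpressor, these 8 were 12.9%. The 6 with the largest smaller change, with values in the same order, were CYP72A14 (-1.34 ± 0.08 and 1.61), RD29A (-1.44 ± 0.15 and 1.58), AZI1 (-2.32 ± 0.13 and 1.33), the chitinase gene CHI, AT2G43570 (-1.33 ± 0.10 and 1.60), the pectate lyase gene AT3G27400 (-1.43 ± 0.18 with AtNIGT1.2-VP) and AT2G43590 (-2.74 ± 0.10 and 1.18). The difference passed in limma for all 6, which were likewise picked for opposite calls, so this adds no support either. Another 16 genes, 4.92% of the 325 that fell by at least 1 in the overexpressor, fell by at least 1 in both. Of the 16, AT5G14650 (-2.65 ± 0.14 and -2.29) and CKX4 (-1.91 ± 0.09 and -1.45) were the deepest with AtNIGT1.2-VP.

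**Figure D4:**
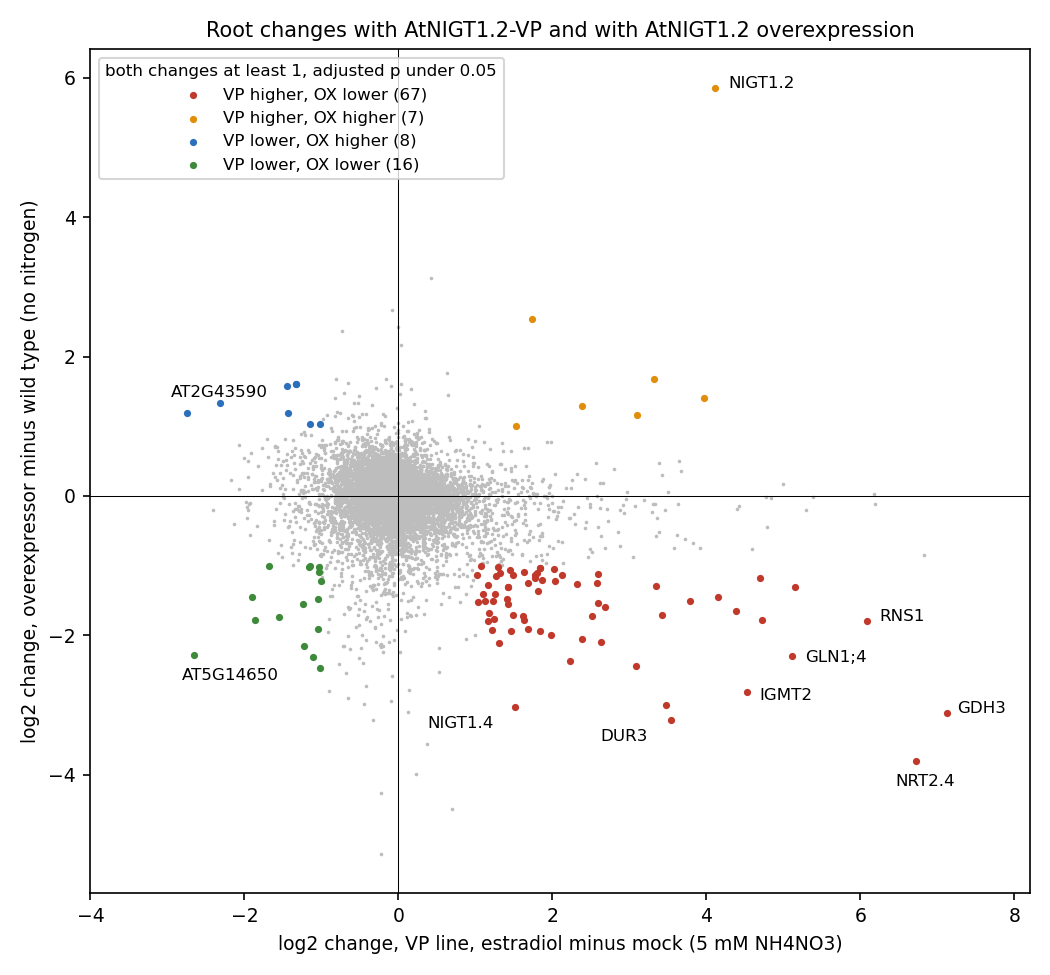
Change with AtNIGT1.2-VP (x axis, log2, estradiol minus mock on 5 mM NH4NO3) against the change with overexpression (y axis, log2, overexpressor minus wild type without nitrogen) for 15086 genes in roots. Coloured points passed both tests with changes of at least 1: 67 are higher with AtNIGT1.2-VP and lower with overexpression, 7 higher in both, 8 lower and higher, and 16 lower in both. With overexpression 325 genes fell by at least 1 and 62 rose by at least 1.

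Nitrogen starvation of wild-type roots offers a scale for the induced levels, in the same table. Starvation raised 5021 genes (33.3%) and lowered 3273 (21.7%), and of the 418 genes that rose by at least 1 with AtNIGT1.2-VP, 214 (51.2%) rose with starvation and 68 fell. NRT2.4 reached 12.29 ± 0.08 (SD, n = 3) in induced roots on 5 mM NH4NO3, against 11.38 ± 0.16 in starved wild type and 5.71 ± 0.33 in wild type on 5 mM NH4NO3. GDH3 reached 12.87 ± 0.03 against 8.21 ± 0.30 in starved wild type. For both genes every array of induced roots on nitrogen lay above every array of starved wild type, a difference that was not tested. NRT2.1 lay the other way, at 9.37 ± 0.10 in induced roots against 13.03 ± 0.07 in starved wild type, and CEPH likewise, at 7.55 ± 0.02 against 12.03 ± 0.23. Of the phosphate starvation genes that led the response to AtNIGT1.2-VP, PAP17 changed by -0.67 with nitrogen starvation (adjusted p = 1.34e-05) and SPX1 by 0.23, which did not pass (adjusted p = 0.136). GAT1_2.1 fell by 4.18 with starvation and rose by 2.62 ± 0.13 with AtNIGT1.2-VP.

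Many genes that rose in roots also rose in shoots of the same treatments. Of 13811 genes tested in both tissues, 24.2% were higher and 25.4% lower in shoots. Of the 368 such genes that rose by at least 1 in roots, 257 (69.8%) rose in shoots and 16 fell, and of the 155 that fell by at least 1 in roots, 55 (35.5%) fell in shoots and 33 rose. Of the 12 largest root increases 9 were tested in shoots, and all 9 rose. GDH3 rose by 5.63 in shoots, RNS1 by 5.42, AMT1;4 by 3.53, NRT2.4 by 2.06 and CEPD1 by 1.32. DUR3 rose by 4.92 and PAP17 by 4.01. NIGT1.2 rose by 2.94 and NIGT1.4 by 2.99 in shoots, whereas NIGT1.1 (-0.06, adjusted p = 0.811) did not pass there. LOG1 (-0.11, adjusted p = 0.6), PSAD2 (-0.12, adjusted p = 0.394) and NRT2.1 (-0.01, adjusted p = 0.972) changed in roots and did not pass in shoots. The difference between tissues was not tested, because roots and shoots come from separate tables. Across the 13811 genes the changes in both tissues correlated with Pearson's r of 0.391 and Spearman's rho of 0.25, as a description.

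**Figure D5:**
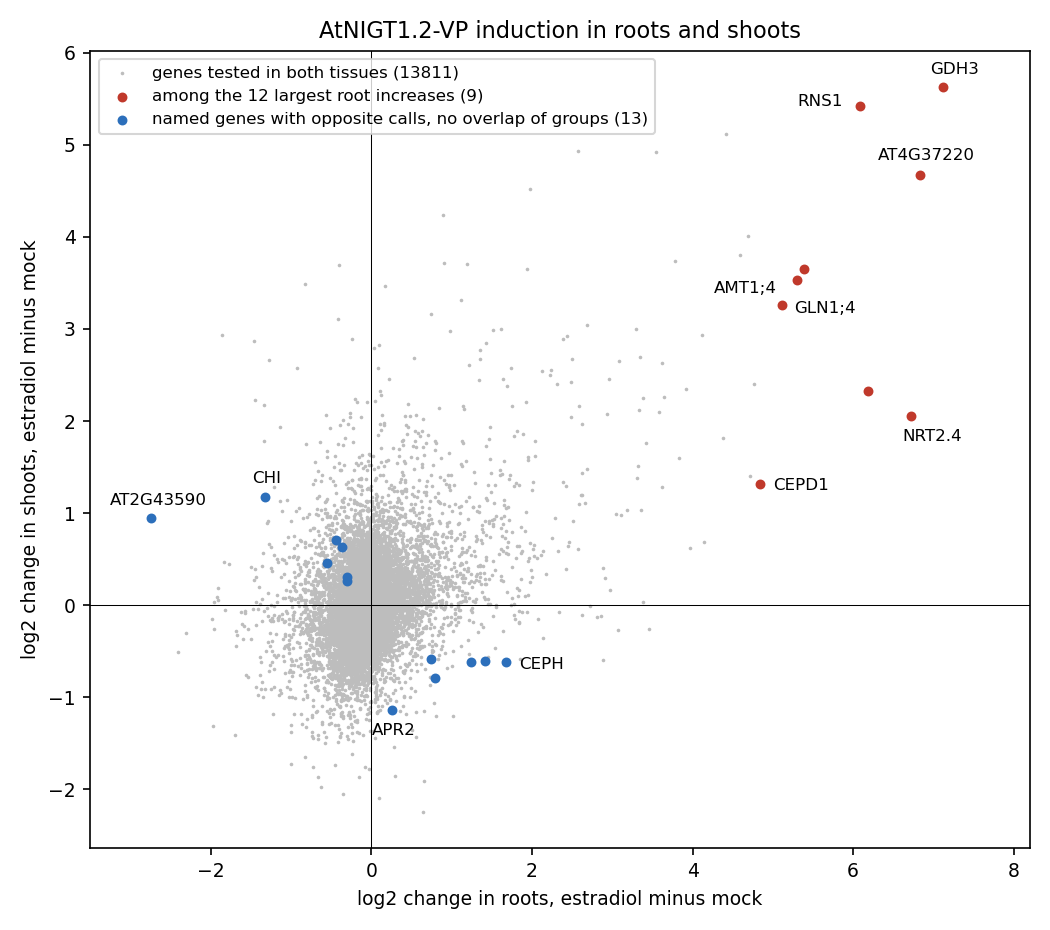
Change with estradiol in roots (x axis) and in shoots (y axis), both log2, estradiol minus mock, for 13811 genes tested in both tissues. The 9 genes from among the 12 largest root increases (red) all lie above 0 in shoots, and 13 named genes (blue) changed in opposite directions, from AT2G43590 (-2.74 in roots, 0.95 in shoots) to CEPH (1.68 and -0.62). Among all 13811 genes, 241 were called higher in roots and lower in shoots, and 735 the reverse.

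In the authors' deposited table, which covers the 22746 probe sets, 3395 probe sets had a Benjamini-Hochberg value under 0.05 for this comparison, 1546 of them higher with estradiol and 1849 lower. By the q-values of the authors' deposited table the numbers were 2737 higher and 4106 lower.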

How the data were processed

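The deposited root table holds RMA log2 values of 15 root arrays of 22746 probe sets, per the file headers, and the shoot table another 15 arrays. MAS5 is named in the submitters' processing notes, with no version. The authors' deposited comparison columns, with p-values and q-values and with fold changes given as log2 differences, were copied and not refitted. A means model of 5 groups of 3 arrays was fitted per tissue with limma 3.58.1 in R 4.3.3 (empirical Bayes with an intensity trend). Probe sets with a mean under the 30th percentile (5.33) were left out, and p-values, two-sided, were adjusted by Benjamini-Hochberg over the 15922 others, with a threshold of 0.05. Genes were counted by their single-gene probe set of highest mean, and 21278 of 21452 such probe sets matched the reference gene table. The genes described are the 12 highest and 12 lowest called changes among genes whose mock and estradiol arrays did not overlap. Added to them are up to 4 smallest p-values of each of 22 lists and the largest opposite changes against overexpression. Other genes are given as list or family members, chosen after their values were seen. Members and lists were chosen with earlier results of these data known. The labels do not say that a replicate number marks a shared batch. Deviations from the group mean correlated weakly between mock and estradiol arrays of the same number (r of 0.0754, 0.0939 and 0.0279). Whether the numbers pair the samples was not tested. The fit was checked on simulated data. Promoter sequences were not analysed here, and no genome build was used.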

Additional observations from a re-analysis of the deposited data

Results flagged for a closer look

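The 13 genes below, out of 119 named genes, changed in opposite directions in roots and shoots. They passed the threshold in each tissue, with mock and estradiol arrays that did not overlap. Opposite calls were not particular to them. Of 13811 genes tested in both tissues, 241 rose in roots and fell in shoots, and 735 did the reverse. The condition on overlap was not applied to these 2 counts. The tissues were normalised separately, and the difference between them was not tested. Values are log2 changes, estradiol minus mock, in roots and then in shoots. CEPH, the phosphatase acting on NRT2.1, was at 1.68 in roots and -0.62 in shoots, and CEPR2, a receptor of CEP peptides, at -0.37 and 0.63. The sulfate assimilation genes APR1 (1.23 and -0.62), APR3 (0.74 and -0.59) and APR2 (0.26 and -1.14) were higher in roots and lower in shoots, whereas the sulfate transporter SULTR1;2 was at -0.56 and 0.46. The auxin synthesis gene TAR2 was at 1.42 and -0.60 and the nicotianamine synthase gene NAS4 at 0.79 and -0.79. Both chitinase genes went the other way, with AT2G43590 at -2.74 and 0.95 and CHI (AT2G43570) at -1.33 and 1.17. The root hair regulator GL2 (-0.44 and 0.71), the clock gene ELF3 (-0.31 and 0.30) and the actin gene ACT8 (-0.31 and 0.26) were lower in roots and higher in shoots.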

How the results depend on the processing

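Over 15 alternatives, the counts of probe sets kept to within 1.5 times, except that the 50th percentile filter left 256 increases of at least 1 in place of 435, with 11373 probe sets tested. With the replicate number as a block there were 2471 higher and 4521 lower, 435 and 250 by at least 1, and 771 genes were higher with AtNIGT1.2-VP and lower with overexpression. Leaving out 1 array of the VP line at a time gave 2137 to 2425 higher, 3566 to 4202 lower, 422 to 463 and 218 to 280 by at least 1, 695 to 751 in place of the 774, and 6619 to 7116 in place of the 7457. Centring each array on its median gave 2935 higher and 3628 lower. A filter that did not use the estradiol arrays, chosen after seeing the data, gave 2415 and 4510, with 389 and 250 by at least 1. Of 119 named genes 4 changed their call and 0 their direction, among the settings in which a gene was still tested. Genes left out by a filter were not counted, such as TPPC, CXE17, DIR5 and NRT2.5 when the filter did not use the estradiol arrays. YLS8 no longer passed without estradiol replicate 2 (adjusted p = 0.0737) or mock replicate 2 (adjusted p = 0.0674), and HSP90.1, CPC and PRP3 passed when only the 6 VP arrays were fitted. Under the 50th percentile filter 11 phosphate genes were higher in place of 17, and 2 cytokinin genes were higher and 7 lower in place of 5 and 12. The same filter left 5 nitrate transport genes lower in place of 8, 5 UMAMIT genes lower in place of 8, 10 WRKY genes higher in place of 17, 3 defence genes higher in place of 5 and 0 trehalose-6-phosphate phosphatase genes higher in place of 2 (4 with no filter). With only the 6 VP arrays fitted, 5 iron genes were lower in place of 3 and 4 root hair genes in place of 2. Signal over background could not be judged without detection calls.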
